A study of Bos taurus with 6 samples.

Results

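The genes described here are 9 immediate early genes: the Krüppel-like factors KLF2, KLF4 and KLF6, the transcription factor MYC, the phosphatase gene DUSP1, the immediate early response genes IER2 and IER3, and the RNA-decay genes ZFP36 and BTG2. They are a list of gene names with no threshold on their values, put together with earlier results of these data known, and all 9 were found among the 23704 genes to which the transcripts of the files were assigned. RNA was measured in pools of bovine primordial follicles (PMF, a small oocyte and the flat pre-granulosa cells around it), isolated mechanically from the ovarian cortex. By the study's methods for uncultured PMF, the animals were Holstein Friesian dairy cows of 12 to 24 months whose ovaries came from an abattoir. The 3 T0 libraries are PMF retrieved after collection, which by those methods included 1 h of recovery in medium with insulin, transferrin, selenium and FSH, so T0 also follows homogenization of the tissue and that hour. The 3 T16 libraries are PMF retrieved after 16 h of culture, whose conditions are not given in the sources used here. The labels separate the groups by time alone. By the study's methods uncultured PMF were pooled as whole follicles, and the number of animals behind a pool is not given in the sources used here. Transcripts of stroma, smooth muscle and endothelium markers were also measured in the pools. T16 replicate 2 had few counts of most oocyte markers, as given below.

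Immediate early genes are transcribed within minutes of a stimulus, such as a growth factor, a wound or the dissociation of a tissue, from factors already present in the cell. Most of their mRNAs are short-lived, and several of their products switch the response off again. DUSP1 dephosphorylates the MAP kinases that carry the signal, ZFP36 binds AU-rich elements in mRNAs and recruits the CCR4-NOT deadenylase, and BTG2 brings in the same deadenylase and slows the cell cycle. In the ovary, gonadotropins induce several of these genes in granulosa cells.

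The libraries held 22174653 to 36703016 estimated counts. Oocyte markers had counts in all of them, but T16 replicate 2 and T0 replicate 1 stood apart: the 12 markers summed to 80.8 TPM (a level scaled for transcript length and library size) in the first, against 721 and 1758 TPM in the other T16 libraries. They summed to 453 TPM in T0 replicate 1, against 1860 and 2652 TPM in the other T0 libraries. In T16 replicate 2, 39.5 of the 80.8 TPM were KIT, which differed little between libraries (29.7 to 59.3 TPM). There 11 of the 12 markers were lowest of the 6 libraries, with 1 estimated count for DPPA3 and 8 for BMP15. T16 replicate 1 had the lowest sums of the 6 libraries for stroma (272 TPM), smooth muscle and pericyte (23.4 TPM) and endothelium (16.3 TPM). The endothelium sum was mostly CLDN5 in the T0 libraries. KDR, TEK and TIE1, 3 of the 9 endothelium markers, were highest of the 6 libraries in T16 replicate 1. In bulk samples of this kind, fewer cells of a type and less RNA per cell cannot be told apart.

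After 16 h of culture, BTG2, ZFP36 and DUSP1 were at lower levels than at T0 in every library, whereas the groups overlapped for KLF6, MYC, IER3 and IER2. KLF4 was low in 2 of the 3 T0 libraries and at 18.99 TPM or more in the other 4 libraries, and KLF2 was scarce throughout. The 3 genes whose groups did not overlap were all lower at T16, 3 of 9 genes, where 11.6% of the 14639 genes tested lay below and 11.5% above in the same way. With 3 libraries against 3, an exact two-sided permutation test cannot give a p under 0.1, and it gave 0.1 for each of these 3 genes. By edgeR's quasi-likelihood test with Benjamini-Hochberg adjustment over all genes tested, none of the 9 passed 0.05, against 0.0342% of all genes called higher and 0.00683% called lower; 2 of the 9, BTG2 and ZFP36, had an unadjusted p under 0.05, as did 13.8% of all genes. DESeq2 called 1 of the 9, BTG2, as lower, where it called 3.51% of all genes lower and 4.2% higher. The median log2 fold change of the 9 genes was -0.23, beside -0.08 for all genes tested. All 9 passed the count minimum of 10 counts in 3 libraries.

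**Figure D1:**
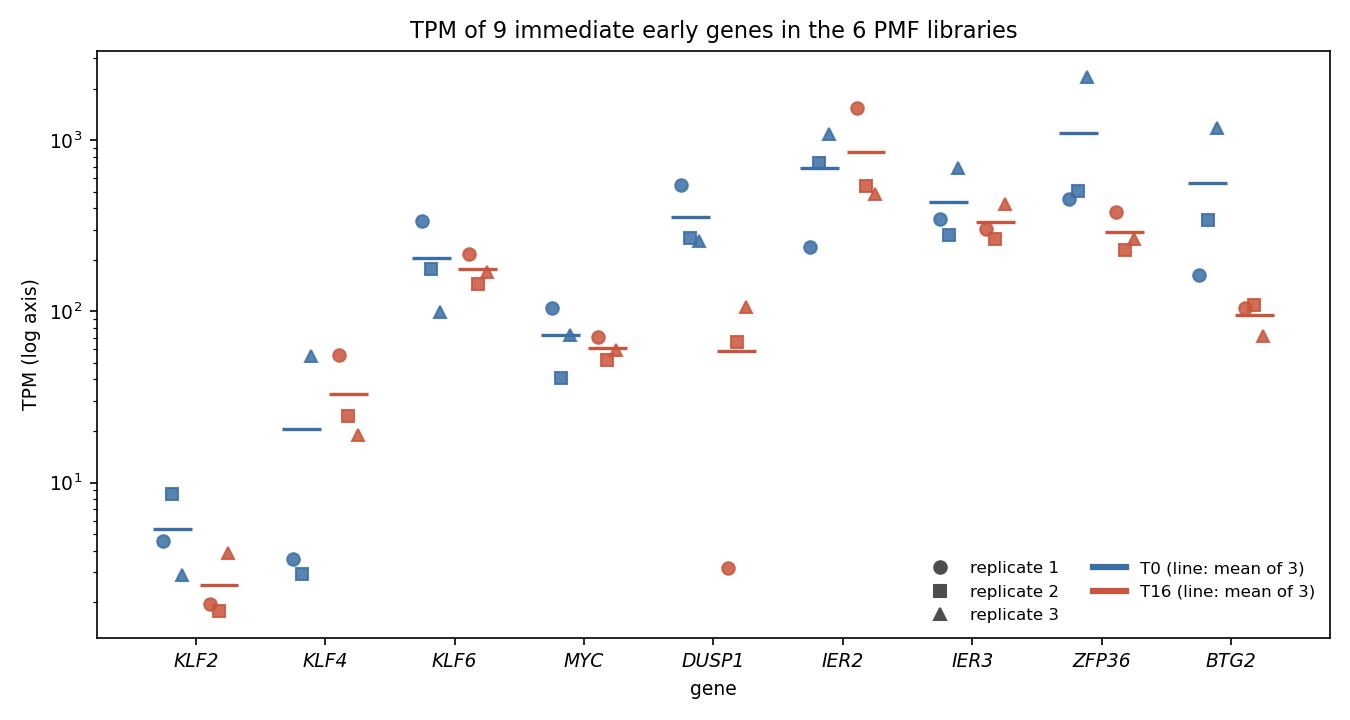
TPM (log axis) of the 9 genes in each of the 6 PMF libraries; symbols give the replicate, colours the group and short lines the mean of 3 libraries. DUSP1, ZFP36 and BTG2 have every T16 library below every T0 library, and KLF4 in T0 replicate 3 (54.95 TPM) lies with the T16 libraries.

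BTG2 was the member with the smallest p. It had 162, 341 and 1175 TPM in T0 replicates 1, 2 and 3 and 104.7, 109.5 and 71.56 TPM in T16 replicates 1, 2 and 3. The T16 libraries were close together, whereas T0 replicate 3 held more than both other T0 libraries combined. Mean levels were 559 TPM (SD 541, n = 3) at T0 and 95.2 TPM (SD 20.7, n = 3) at T16, a ratio of 5.87. The log2 fold change was -2.39 (SE 0.67, 95% interval -3.96 to -0.81, edgeR adjusted p = 0.175). DESeq2 gave -2.49 (adjusted p = 0.0132). Without T0 replicate 3 the edgeR value was -1.36 (adjusted p = 0.354).

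ZFP36, which encodes tristetraprolin, had the highest mean of the 9 genes at T0. Its levels were 450 and 507 TPM in T0 replicates 1 and 2 and 2324 TPM in T0 replicate 3, against 379, 229 and 264 TPM in T16 replicates 1, 2 and 3. The groups did not overlap, but T0 replicate 1 and T16 replicate 1 were near each other. Mean levels were 1094 TPM (SD 1066, n = 3) at T0 and 291 TPM (SD 78.6, n = 3) at T16. The log2 fold change of -1.74 (SE 0.65, 95% interval -3.27 to -0.22, edgeR adjusted p = 0.293) was -0.68 without T0 replicate 3 (edgeR adjusted p = 0.605). The ratio of ZFP36 to BTG2 overlapped between the groups: 2.78, 1.49 and 1.98 in T0 replicates 1, 2 and 3 and 3.62, 2.09 and 3.69 at T16.

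T0 replicate 3, the highest library for both RNA-decay genes, was also the shallowest library. It had the highest sum of oocyte markers (7 of 12 markers highest there) and, of the T0 libraries, the lowest sums for stroma (1063 TPM, against 1194 and 2443 TPM), smooth muscle and pericyte (112 TPM, against 330 and 435 TPM), pregranulosa (351 TPM, against 746 and 768 TPM) and endothelium (23.96 TPM, against 247 and 393 TPM). Single markers were mixed. Some, such as COL1A2, TAGLN, CDH2 and CLDN5, were lowest of the T0 libraries there, and others, such as DCN, DES, WNT6, TEK and TIE1, were not. The part of these differences in the levels of ZFP36 and BTG2 was not tested.

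DUSP1, the MAP kinase phosphatase MKP-1, was the member most uneven between T16 libraries. It had 547, 267 and 258 TPM in T0 replicates 1, 2 and 3, and 3.17, 66 and 106 TPM in T16 replicates 1, 2 and 3. In T16 replicate 1 these were 99 estimated counts, beside 1813 and 4957 counts in the other T16 libraries and 7169 to 16731 at T0. Even the highest T16 library was below the lowest T0 library, and the mean of 58.5 TPM (SD 52.0, n = 3) at T16 was 6.11 times lower than the 358 TPM (SD 164, n = 3) at T0. The log2 fold change was -2.45 (SE 1.11, 95% interval -5.05 to 0.14, edgeR adjusted p = 0.39), the largest of the 9 by size with the widest interval. Leaving out T16 replicate 1 gave -1.94, leaving out T0 replicate 1 gave -1.86 and leaving out T16 replicate 3 gave -3.41.

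Within each group, DUSP1 followed the order of the summed stroma markers, but not of each marker. This sum was singled out after the sums of all marker lists were seen. The sums for smooth muscle and pericyte, pregranulosa and endothelium had the order of DUSP1 at T0 but not at T16. With 3 libraries per group, no source of DUSP1 is read from the match. The 7 stroma markers summed to 2443, 1194 and 1063 TPM in T0 replicates 1, 2 and 3 and to 272, 733 and 1656 TPM in T16 replicates 1, 2 and 3. COL1A1, COL1A2 and LUM had the order of DUSP1 in both groups, whereas COL3A1, DCN, PDGFRA and TCF21 did not. DCN had 199, 490 and 461 TPM in T0 replicates 1, 2 and 3 and 152, 165 and 120 TPM at T16. Across groups the order of the sum did not hold either, since T16 replicate 3 had a higher stroma sum than T0 replicates 2 and 3 and less DUSP1. In T16 replicate 1, 4 of the 7 stroma markers were at their lowest of the 6 libraries, and 1 (TCF21) was at 0 there and in T0 replicate 1. In the same library 4 of the 7 smooth muscle and pericyte markers were lowest, with ACTA2 and MYH11 at 0, and 4 of the 9 pregranulosa markers. The smooth muscle and pericyte sum ranged from 112 to 435 TPM at T0 and from 23.4 to 105 TPM at T16, and the endothelium sum from 23.96 to 393 TPM and from 16.3 to 39.1 TPM. Their part in the difference of DUSP1 was not tested.

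**Figure D2:**
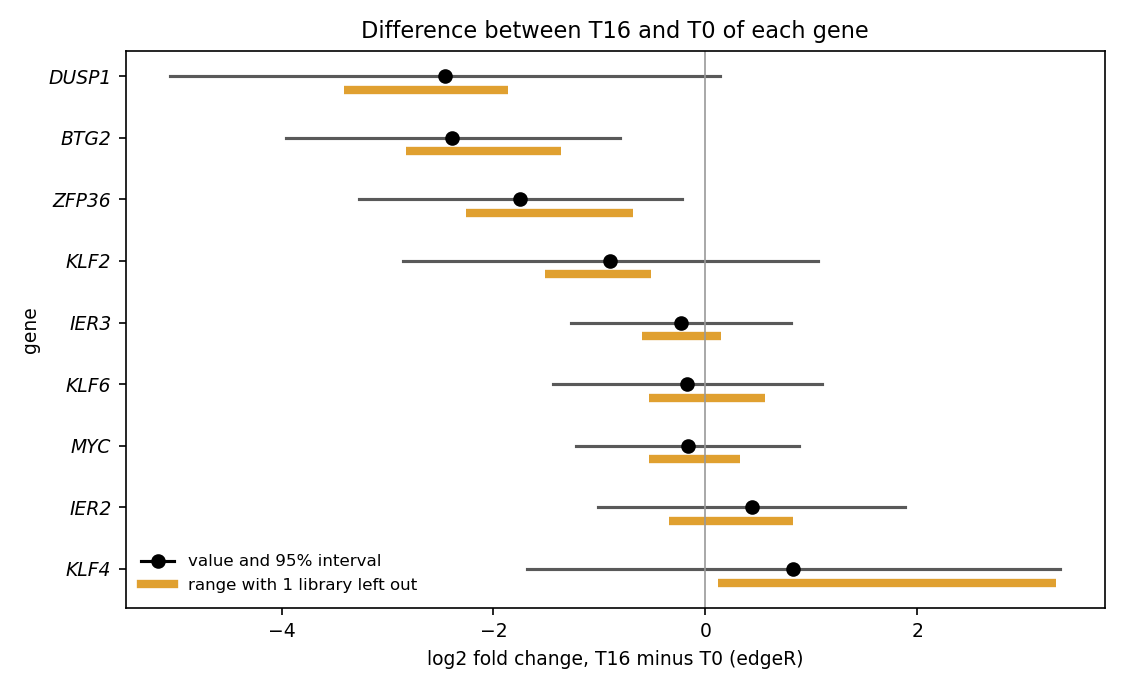
Log2 fold change, T16 minus T0, of each gene by edgeR (points) with its 95% interval (thin lines); thick bars give the range of the value with 1 library left out in turn. The intervals of BTG2 and ZFP36 lie below 0, and the bars of KLF6, MYC, IER2 and IER3 cross 0.

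IER2 and IER3 had overlapping groups and were the members with the highest means at T16. IER2, a nuclear protein, had 236, 740 and 1093 TPM in T0 replicates 1, 2 and 3 and 1543, 536 and 485 TPM at T16, so the highest and the second-highest library belonged to different groups. Its log2 fold change was 0.44 (SE 0.61, 95% interval -1.01 to 1.88, edgeR adjusted p = 0.828), and -0.34 without T16 replicate 1. IER3, which modulates ERK signalling and cell survival, had 345, 281 and 687 TPM at T0 and 303, 266 and 425 TPM at T16. Its log2 fold change was -0.23 (SE 0.45, 95% interval -1.27 to 0.81, edgeR adjusted p = 0.879), and 0.15 without T0 replicate 3. The interval of IER2 reaches past 2-fold in both directions, and that of IER3 past 2-fold lower.

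Of the 3 Krüppel-like factors, KLF6 was by far the most abundant. KLF6 had 338, 177 and 98.9 TPM in T0 replicates 1, 2 and 3 and 218, 145 and 170 TPM in T16 replicates 1, 2 and 3, with all T16 libraries inside the T0 range. The log2 fold change was -0.17 (SE 0.54, 95% interval -1.44 to 1.10, edgeR adjusted p = 0.93). Without T0 replicate 1 it was 0.56. The files hold 3 KLF6 transcripts, and the one of 2406 bases carried 63.3% to 85.1% of the KLF6 TPM in every library.

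KLF4, a zinc finger factor known for restraining proliferation in epithelia and for its use in reprogramming, had the largest ratio of highest to lowest library at T0 (18.7). It had 3.56 and 2.93 TPM in T0 replicates 1 and 2 (159 and 145 estimated counts) and 54.95 TPM in T0 replicate 3 (2101 counts). At T16 it had 55.4, 24.4 and 19.0 TPM in replicates 1, 2 and 3. T0 replicate 3 thus lay above 2 T16 libraries, while T0 replicates 1 and 2 were below all of them. The log2 fold change of 0.83 (SE 1.07, 95% interval -1.68 to 3.35, edgeR adjusted p = 0.809) was 3.31 without T0 replicate 3 (edgeR adjusted p = 0.252) and 0.12 when T0 replicate 2 or T16 replicate 1 was left out. DESeq2 gave no adjusted p for this gene.

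The KLF4 transcripts also differed between those libraries. The transcript of 2822 bases held 57.9% to 82.9% of KLF4 TPM in the 3 T16 libraries and 72.7% in T0 replicate 3, against 49% and 20.4% in T0 replicates 1 and 2. These shares rest on few reads where the gene was low, and Salmon divides reads shared by overlapping transcripts, so they are estimates without a test.

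KLF2, best known from endothelium under flow, had the lowest level of the 9. It had 4.58, 8.57 and 2.90 TPM at T0 and 1.96, 1.77 and 3.86 TPM at T16, from 40 to 261 estimated counts. T16 replicate 3 lay above T0 replicate 3, and the log2 fold change was -0.90 (SE 0.83, 95% interval -2.85 to 1.06, edgeR adjusted p = 0.721). Of the endothelial markers, PECAM1, CDH5, KDR and EMCN reached at most 6.57 TPM in any library, and CLDN5 was the one abundant marker of the list, with 382, 228 and 13.6 TPM at T0 and 4.36, 31.3 and 16.9 TPM at T16.

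MYC, the growth-promoting basic helix-loop-helix factor, had overlapping groups. It had 104, 40.8 and 72.3 TPM in T0 replicates 1, 2 and 3 and 71.0, 51.8 and 59.7 TPM in T16 replicates 1, 2 and 3, with the T16 libraries inside the T0 range. The log2 fold change was -0.17 (SE 0.45, 95% interval -1.22 to 0.88, edgeR adjusted p = 0.916), moving to 0.33 when T0 replicate 1 was left out and to -0.53 when T0 replicate 2 was. Of its 2 transcripts, the one of 2211 bases carried 67.9% to 90.7% of MYC TPM.

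The order of the levels differed between the groups, and at T0 it was loose. By mean TPM at T0 the order was ZFP36, IER2, BTG2, IER3, DUSP1, KLF6, MYC, KLF4 and KLF2, and the ranges of all neighbours overlapped. Within every T0 library, however, DUSP1 was above KLF6, KLF6 above MYC and MYC above KLF4. At T16 it was IER2 (855 TPM), IER3 (331), ZFP36 (291), KLF6 (178), BTG2 (95.2), MYC (60.9), DUSP1 (58.5), KLF4 (32.9) and KLF2 (2.53). There the ranges of IER3 and ZFP36, of MYC and DUSP1, and of DUSP1 and KLF4 overlapped, and the other 5 pairs of neighbours were apart. Ratios within a library were compared after adding 1 to each TPM, so those of scarce genes still depend somewhat on scaling. By these, 11 of the 36 pairs of members (30.6%) had groups that did not overlap, where 23.8% of all pairs of tested genes did. DUSP1 was in 5 of the 11. Without the added 1, its pair with KLF2 overlapped (KLF2 to DUSP1 0.0084 to 0.032 at T0 and 0.027 to 0.62 at T16). The ratio of IER2 to BTG2 was 0.93 to 2.17 at T0 and 4.90 to 14.7 at T16.

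Within T0 the members differed in which library was highest. KLF6, MYC and DUSP1 were highest of the T0 libraries in replicate 1, KLF4, IER2, IER3, ZFP36 and BTG2 in replicate 3, and KLF2 in replicate 2. Of all tested genes, 33.8%, 28.9% and 37.3% were highest in T0 replicates 1, 2 and 3. The 9 genes summed to 2191, 2365 and 5766 TPM in T0 replicates 1, 2 and 3, with ZFP36 alone making up 40.3% of the sum in replicate 3, and to 2679, 1430 and 1604 TPM at T16, where IER2 was the largest part (57.6%, 37.5% and 30.2%).

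**Figure D3:**
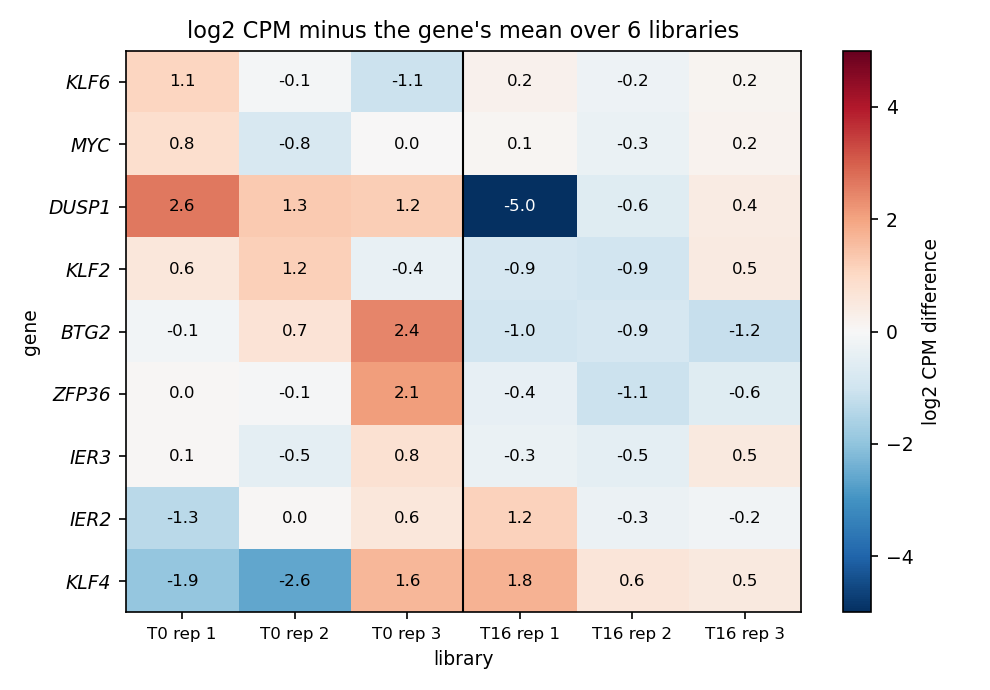
Log2 CPM (counts scaled to library size) of each gene in each library, minus the mean of the gene over the 6 libraries; red is above and blue below that mean, and the vertical line parts T0 from T16. T0 replicate 1 is high for KLF6, MYC and DUSP1, and T0 replicate 3 for BTG2, ZFP36 and KLF4.

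By Pearson's r over the 6 libraries, the gene of 6539 searched whose log2 CPM was most like the mean of the 9 members was GINS2 (r = 0.989), a subunit of the replicative helicase, followed by MRPL18 (0.952), NCAPH (0.929), ATF3 (0.926) and IFITM1 (0.926). These values describe 6 libraries in which T0 replicate 3 was the highest for the members' mean (7.83 log2 CPM, against 6.53 to 7.22 in the others), and all 5 genes were also highest there. Among them ATF3 is an immediate early factor itself, with 24.2, 24.4 and 245 TPM at T0 and 15.1, 11.3 and 13.2 TPM at T16.

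Among relatives of the members, no gene passed edgeR's threshold over all genes, and the lists differed in where their values lay. The counts of separated genes in the lists stand beside the 11.5% of all tested genes above and the 11.6% below every T0 library, and the DESeq2 calls beside 4.2% higher and 3.51% lower. With so few genes a list, nothing particular to a list is read from them. Of the 12 other KLF genes tested, 2 were above every T0 library and 1 below, with a median log2 fold change of -0.92. The factor KLF5 had 6.44, 6.81 and 23.1 TPM at T0 and 79.95, 23.99 and 33.6 TPM at T16 (log2 fold change 2.05, edgeR adjusted p = 0.216). KLF10, a TGF-beta-induced member, had means of 51.6 TPM at T0 and 145.8 TPM at T16 (log2 fold change 1.55, edgeR adjusted p = 0.275), and KLF11 was at -1.08 (edgeR adjusted p = 0.386). KLF5 and KLF10 were thus the 2 above, and the scarce KLF15 was the 1 below (log2 fold change -2.66, edgeR adjusted p = 0.51). The members KLF2, KLF4 and KLF6 overlapped.

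Of the 7 other MAP kinase phosphatases tested, 2 were above every T0 library and 0 below. DUSP6, a cytoplasmic phosphatase of ERK, had 91.4, 36.6 and 65.0 TPM at T0 and 367, 187 and 218 TPM at T16, with no overlap (log2 fold change 2.03, edgeR adjusted p = 0.136, DESeq2 adjusted p = 0.00697). DUSP4 had 0.272, 0.649 and 2.83 TPM at T0 and 20.8, 6.85 and 14.7 TPM at T16 (log2 fold change 3.69, edgeR adjusted p = 0.159, DESeq2 adjusted p = 0.00363). DESeq2 called these 2 as higher and 0 as lower, and DUSP10 overlapped (log2 fold change -0.44).

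Of the 8 Sprouty, SPRED and related inhibitors of ERK signalling, 4 were above every T0 library and 0 below, and DESeq2 called 4 higher. SPRY4 had 1.92, 0.865 and 6.01 TPM at T0 and 67.3, 38.4 and 19.7 TPM at T16 (log2 fold change 3.87, edgeR adjusted p = 0.107, DESeq2 adjusted p = 0.000106). SPRY2 had means of 19.6 and 60.9 TPM at T0 and T16 (edgeR adjusted p = 0.107, DESeq2 adjusted p = 0.00081), and SPRED1 of 5.08 and 18.97 TPM (edgeR adjusted p = 0.138, DESeq2 adjusted p = 0.00611), both without overlap. The median of this list was 1.3, the highest of the 11 lists. The MAP kinases themselves had a median of -0.52, and 2 of the 9 tested, MAPK3 and MAPK14, were below every T0 library, while MAPK9 (log2 fold change -0.57) and MAPK13 (-1.10) overlapped. MAPK14, the p38 alpha kinase, had 112, 98.5 and 96.5 TPM at T0 and 85.7, 55.6 and 59.8 TPM at T16 (log2 fold change -0.53, edgeR adjusted p = 0.512, DESeq2 adjusted p = 0.34). Whether DUSP1 differed from these genes in its response was not tested.

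Of the 9 other ZFP36, BTG/TOB and IER genes, only BTG3 was separated, and it was higher: 108, 106 and 159 TPM at T0 against 315, 186 and 256 TPM at T16 (log2 fold change 1.16, edgeR adjusted p = 0.188). The paralogs ZFP36L2 (log2 fold change -0.32) and ZFP36L1 (-0.41) overlapped. Of the 12 CCR4-NOT subunits, the deadenylase that ZFP36 and BTG2 recruit, CNOT7 had 120, 109.5 and 141 TPM at T0 and 309, 229 and 229 TPM at T16 (log2 fold change 1.15, edgeR adjusted p = 0.151, DESeq2 adjusted p = 0.0149). CNOT10 was also above every T0 library (0.61), CNOT4 overlapped (1.06), and 0 of the 12 lay below.

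Among 12 mRNAs with AU-rich elements known as ZFP36 targets, 8 could be tested, 2 were above every T0 library and 0 below. The chemokine CXCL2 was at 0, 0 and 1.23 TPM at T0 and at 42.5, 88.9 and 116 TPM at T16, and CXCL8 at 0, 0 and 6.25 TPM at T0 and 78.0, 131 and 83.8 TPM at T16. CXCL2 had an edgeR adjusted p of 0.107 and was called higher by DESeq2 (adjusted p = 5.439e-06). CXCL8 passed neither test (edgeR adjusted p = 0.248, DESeq2 adjusted p = 0.22). VEGFA overlapped (log2 fold change 1.29). TNF and CSF2 were listed at 0 TPM in all libraries.

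Of the 12 MYC-driven growth genes, 7 were above every T0 library and 0 below, with a median log2 fold change of 0.88. The 7 were NCL, NPM1, FBL, NOP56, NOP58, POLR1B and NOLC1. The groups overlapped for ODC1, CDK4, CCND2, LDHA and CAD, so the difference did not extend over the list. Any part of MYC in it was not tested. The nucleolar gene NOP56 had 91.4, 114 and 150 TPM at T0 and 782, 452 and 516 TPM at T16 (log2 fold change 2.42, edgeR adjusted p = 0.0872, DESeq2 adjusted p = 4.206e-07). NOP58, its partner in the snoRNP, had means of 80.99 and 295 TPM at T0 and T16 (edgeR adjusted p = 0.0921, DESeq2 adjusted p = 0.000109), and NOLC1 of 80.5 and 235 TPM (edgeR adjusted p = 0.158, DESeq2 adjusted p = 0.0151). DESeq2 called these 3 of the 12 higher and 0 lower. In the MYC network of 11 genes, 3 lay below (MYCL, MXD4 and MNT) and 1 above (MLXIP, log2 fold change 1.18, edgeR adjusted p = 0.38). The MYC antagonist MXI1 had 29.5, 60.7 and 61.7 TPM at T0 and 30.3, 11.7 and 10.8 TPM at T16, with T16 replicate 1 inside the T0 range (log2 fold change -1.44, edgeR adjusted p = 0.217), and MXD1 (0.79) overlapped.

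The 15 AP-1, EGR and NR4A factors, induced by the same stimuli, had a median log2 fold change of -1.37. Of these, 6 were below every T0 library and 1, FOSL1, was above. The highest value was in T0 replicate 3 for 11 of the 15. Over all tested genes this share was not computed, but 37.3% were highest of the T0 libraries in that replicate. DESeq2 called 4 of the 15 lower and 1 higher. On the log2 scale the difference was -4.61 for FOS, an AP-1 subunit (edgeR adjusted p = 0.0872, DESeq2 adjusted p = 2.134e-10). It was -3.47 for the nuclear receptor gene NR4A1 (edgeR adjusted p = 0.054, DESeq2 adjusted p = 7.054e-13) and -2.78 for the zinc finger factor EGR1 (edgeR adjusted p = 0.0921, DESeq2 adjusted p = 2.018e-06). Of the serum response factor and its partners, SRF had 26.4, 14.9 and 15.1 TPM at T0 and 38.8, 47.5 and 42.2 TPM at T16 (log2 fold change 1.26, edgeR adjusted p = 0.242), and the ternary complex factor ELK3 20.2, 30.2 and 30.7 TPM and 260.3, 97.1 and 96.3 TPM (log2 fold change 2.82, edgeR adjusted p = 0.0872, DESeq2 adjusted p = 7.658e-06). CREB1, which the list holds beside the serum response factor and its partners, was also above every T0 library (log2 fold change 0.80).

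**Figure D4:**
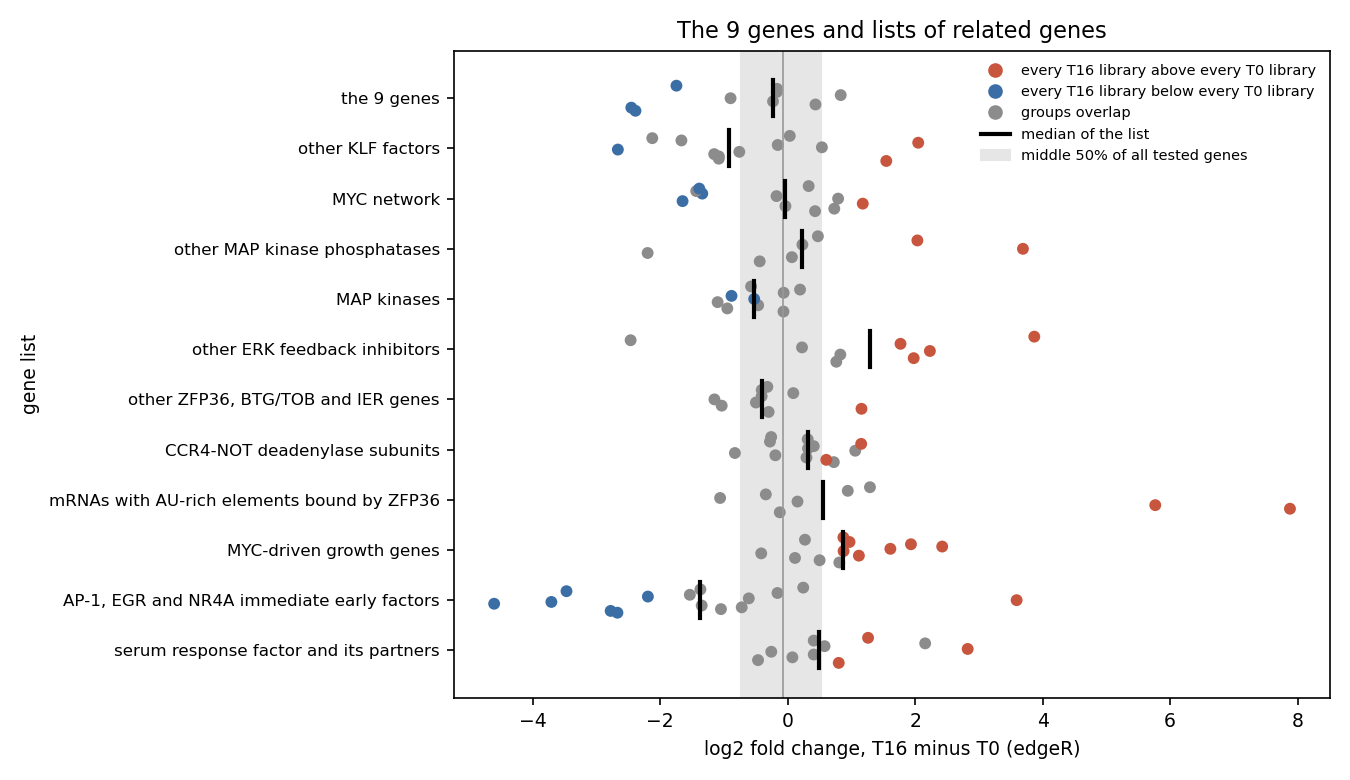
Log2 fold change, T16 minus T0, of each tested gene of the 9 members (top) and of 11 lists of related genes; black ticks are medians, and the grey band is the interquartile range of all tested genes. Blue and red points are genes with every T16 library below or above every T0 library; the 9 members have 3 blue and 0 red points.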

How the data were processed

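The authors trimmed the reads (Trim Galore, fastp), quantified them with Salmon 1.9.0 on RefSeq transcripts of ARS-UCD1.3. The files deposited by the authors give an estimated count and a TPM per transcript and library. Both were added up per gene symbol through a RefSeq table of ARS-UCD2.0, by accession without version; 50205 of 76123 transcripts matched, and 9.74% to 10.9% of counts did not. The assemblies differ, so no coordinates are given. Strand settings of the counting are not given in the sources used here. Counts were rounded and tested with edgeR 4.0.16 (TMM, quasi-likelihood, at least 10 counts in at least 3 libraries, Benjamini-Hochberg, 0.05). A standard error is the log2 fold change divided by the square root of its F statistic. DESeq2 1.42.0 and limma 3.58.1 on log2(TPM + 1) were alternatives, beside other filters and scaling, transcript length offsets, a 2-fold minimum, the replicate block and each library left out. Procedures were tested on simulated data. Members and lists were chosen with earlier results of these data known. From each list of relatives, up to 3 genes with the smallest edgeR p and an average log2 CPM of at least 3 are named, each with its log2 fold change, means or TPM; other genes named from the lists were picked after their values were seen. Nothing says that T0 and T16 pools come from separate animals, so p-values measure the spread between these libraries. The depth was 22174653 to 36703016 estimated counts per library. DUSP7 was not analysed here.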

Additional observations from a re-analysis of the deposited data

How the results depend on the processing

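By edgeR and limma, 0 of the 9 genes passed under any setting run, and DESeq2 called 1, BTG2 (-2.49, adjusted p = 0.0132). BTG2, ZFP36, DUSP1 and KLF2 were below 0 and KLF4 above 0 under all 15 alternatives. BTG2 ranged from -2.86 to -1.36, ZFP36 from -2.26 to -0.68, DUSP1 from -3.44 to -1.84, KLF2 from -1.51 to -0.51 and KLF4 from 0.12 to 3.31. The sign turned for KLF6 with the replicate block (0.07), without T0 replicate 1 (0.56) and without both T0 replicate 1 and T16 replicate 2 (0.70), for MYC without T0 replicate 1 (0.33) and without both libraries (0.48), for IER2 without T16 replicate 1 (-0.34) and for IER3 without T0 replicate 3 (0.15); the cause was not tested. With 1 library left out, KLF6 ranged from -0.53 to 0.56, MYC from -0.53 to 0.33, IER2 from -0.34 to 0.83 and IER3 from -0.60 to 0.15. Leaving out both libraries, those lowest in oocyte markers, was chosen after seeing the data. The median of the members, -0.23, was -0.30 with DESeq2, -0.31 with DESeq2 size factors, -0.34 without a count filter and with length offsets, -0.32 on log2(TPM + 1), -0.11 without both libraries, and -0.60 to -0.05 with 1 library left out. Over all genes, edgeR called 5 higher and 1 lower, and DESeq2 670 and 560, limma on TPM 67 and 36, edgeR without a filter 7 and 4, and edgeR with the replicate block 0 and 0 or without both libraries 0 and 0. With 1 library left out it called 0 to 2 higher and 0 to 1 lower. The labels state no pairing, so their numbers were not taken as one. Deviations of same-numbered libraries from their group means correlated at -0.42, -0.11 and 0, and those of T0 replicate 1 and T16 replicate 2 at 0.41. Such values cannot show whether pools share animals, because the pools also differed in their cell type markers. Matching accessions with their version leaves 1 KLF4 transcript, and its mean is then 4.58 TPM in place of 20.5 TPM at T0 and 7.79 TPM in place of 32.9 TPM at T16; KLF2, KLF6, ZFP36 and BTG2 have no transcript matched in this way, so no value. The depth limits the values of KLF2 most, with 40 to 261 counts.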
